A study of Mus musculus with 7 samples.

Results

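The Ikaros family loci were described peak by peak in mouse splenic Treg (regulatory T) cells, with and without the mitochondrial fusion protein Opa1. The family has 5 members, Ikzf1 (Ikaros), Ikzf2 (Helios), Ikzf3 (Aiolos), Ikzf4 (Eos) and Ikzf5 (Pegasus). A peak was taken as a member if it overlapped one of these genes, or lay within 100 kb of it with that gene the nearest protein-coding gene. This gave 66 of the 50213 deposited peaks, 20 for Ikzf1, 30 for Ikzf2, 11 for Ikzf3, 4 for Ikzf4 and 1 for Ikzf5. The assay was ATAC-seq, where transposase inserts adapters into open chromatin and the inserted fragments are sequenced. The source was mixed bone marrow chimeras, in which CD45.1+ marrow was mixed in equal parts with either Foxp3Cre marrow (WT, 4 libraries) or Foxp3CreOpa1fl/fl marrow (Opa1 KO, 3 libraries). Both genotypes carry Foxp3Cre, and the Foxp3 gene drives this recombinase, so the floxed Opa1 is a target in Foxp3-expressing cells. In all, 50000 CD45.2+CD45.1-CD4+Foxp3-YFP+ cells were sorted per library. No age of the mice is given.

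Ikaros family proteins are zinc finger transcription factors of lymphocytes. In Ikaros, fingers near the N-terminus bind DNA with a GGGAA core. A pair of fingers at the C-terminus joins the proteins of the family into homodimers and heterodimers. They recruit the NuRD remodelling and deacetylase complex and other corepressors, and can silence or sustain target genes. Helios is abundant in Treg cells, where it acts in stable suppressive function. Eos works with Foxp3 in gene silencing in Treg cells, Aiolos acts in helper T cells and B cells, and Ikaros is needed across lymphoid development. Pegasus is the most divergent member.

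RefSeq promoter windows (GRCm38.p6, the assembly that mm10 names, 300 bases around a start) were matched for 2 of the 5 members, Ikzf1, at 2 starts, and Ikzf5. They are shown because each lay in or overlapped a member peak, so the accessibility given below was measured on these bases. Capitals mark the Ikaros core GGGAA, or TTCCC for the same motif on the other strand.
Ikzf1 first start, chr11:11685675-11685974, plus strand: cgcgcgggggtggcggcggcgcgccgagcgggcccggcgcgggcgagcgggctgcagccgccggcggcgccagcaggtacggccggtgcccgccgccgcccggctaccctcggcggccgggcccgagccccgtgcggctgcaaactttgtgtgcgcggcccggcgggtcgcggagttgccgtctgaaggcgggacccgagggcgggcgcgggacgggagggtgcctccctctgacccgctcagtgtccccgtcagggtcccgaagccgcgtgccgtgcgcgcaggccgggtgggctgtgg
Ikzf1 second start, chr11:11689927-11690226, plus strand: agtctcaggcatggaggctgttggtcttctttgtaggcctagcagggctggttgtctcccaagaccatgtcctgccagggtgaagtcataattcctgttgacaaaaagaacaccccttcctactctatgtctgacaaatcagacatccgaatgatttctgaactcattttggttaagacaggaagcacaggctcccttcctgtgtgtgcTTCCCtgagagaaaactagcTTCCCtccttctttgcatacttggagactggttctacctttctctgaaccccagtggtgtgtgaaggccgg
Ikzf5 start, chr7:131410429-131410728, minus strand: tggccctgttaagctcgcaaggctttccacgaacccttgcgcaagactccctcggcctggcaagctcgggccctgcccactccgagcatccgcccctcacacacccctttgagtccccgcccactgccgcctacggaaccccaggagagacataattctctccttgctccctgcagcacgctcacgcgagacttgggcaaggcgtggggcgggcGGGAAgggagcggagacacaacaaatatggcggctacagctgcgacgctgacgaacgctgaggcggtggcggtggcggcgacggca
The first Ikzf1 window is rich in CpG, with 52 CpG pairs and 81.3% G and C, and 99.4% of all 32851 windows held fewer CpG pairs. The second Ikzf1 window held 2 CpG pairs and 49.0% G and C. The Ikzf5 window held 27 CpG pairs and 65.7% G and C. The core GGGAA occurred 0 times in the first Ikzf1 window, 2 times in the second, both on the other strand, and 1 time in the Ikzf5 window. On either strand 62.7% of all windows hold it. The GC box GGGCGG, the letters bound by Sp1-type factors, occurred 2 times in the first Ikzf1 window, 0 times in the second and 4 times in the Ikzf5 window, on either strand, where 35.7% of all windows hold it. Copies of the GC box can overlap one another.

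Library totals in peaks ran from 1534394 to 3384325 counts, and KO replicate 1 was the deepest. The closest libraries were WT replicates 2 and 3, with a chi-square p on halved counts of 0.111 over 36418 peaks and 0.0385 over the 11332 strongest. Every other pair within a genotype had a smaller value. WT replicates 2 and 3 agree within sampling noise on the wider set only. They were averaged to 1 value in each mean ± SD, which makes n = 3 per genotype, while the tests kept all libraries. They remain separate samples, and where they differ the WT SD can be narrower than the spread of the 4 libraries. The series' design gives the n as mice, and nothing further says how the libraries were handled, so p-values cover the spread between these libraries. The tested Opa1 peak (chromosome 16, 29579139 to 29579524) had 35.4, 32.5, 36.2 and 36.5 CPM in WT replicates 1 to 4 and 31.98, 28.0 and 41.0 in KO replicates 1 to 3. CPM stands for the counts of a peak scaled to the library's total in peaks with edgeR's TMM factors. Its log2 fold change was -0.06 (SE 0.19), and this peak at the gene's end does not check the genotype. Of 7 Treg and T cell markers, 6 had peaks, Foxp3, Il2ra and Ctla4 among them, with a summed level of 912 to 1020 CPM in WT and 941 to 1001 in KO. CD8 T cell markers (2 of 2 with peaks) summed to 44.1 to 60.4 and 42.9 to 62.8 CPM, and myeloid markers (3 of 5, Lyz2 and Csf1r without) to 48.7 to 65.3 and 44.5 to 52.4. NK cell markers (2 of 3, Ncr1 without) summed to 195 to 231 CPM in WT and 230 to 232 in KO, and the part of other cell types in the results was not tested. In bulk libraries, fewer cells with an open site and less opening per cell cannot be told apart.

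No Ikaros family locus as a whole passed the test between Opa1 KO and WT Treg cells, and only at Ikzf5 were the libraries of the genotypes fully apart. The summed accessibility of Ikzf2 was 499 ± 31.0 CPM in WT and 484 ± 16.9 in KO (SD, n = 3), and that of Ikzf1 402 ± 14.5 and 403 ± 47.7. Counts were summed over the peaks of each gene and tested with edgeR's quasi-likelihood test across all 13287 genes that passed its count filter, with Benjamini-Hochberg adjustment. Of those genes 50 were called at an adjusted p of 0.05 (0.376%), and 0 of the 5 Ikaros family genes were, nor did one of them reach an unadjusted p under 0.05, beside 11.6% of all genes tested. The calls were split 17 higher and 33 lower in KO, 22 and 19 with no count filter, and 13 and 42 when scaled by total counts.

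Helios is the member most tied to Treg identity. By library the Ikzf2 sum was 532, 460, 484 and 492 CPM in WT and 502, 482 and 468 in KO. The KO values lie within the WT range, and the log2 fold change was -0.02 (SE 0.06, 95% interval -0.15 to 0.10, adjusted p = 0.948). Ikaros had a sum of 415, 391, 382 and 405 CPM in WT and 383, 368 and 457 in KO. KO replicates 1 and 2 sit at the lower side and KO replicate 3 above every WT library. The log2 fold change was 0.01 (SE 0.07, interval -0.12 to 0.15, adjusted p = 0.976).

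Aiolos had the lowest level per length of the family. Its sum was 79.3, 70.1, 94.5 and 68.0 CPM in WT and 94.5, 70.7 and 63.3 in KO, and both groups spread over nearly the same range. The log2 fold change was 0.00 (SE 0.13), with an interval from -0.27 to 0.26. Eos had 102, 144, 115 and 109 CPM in WT and 110, 111 and 135 in KO. WT replicate 2 was the highest library and the groups overlapped (log2 fold change 0.02, SE 0.11, interval -0.20 to 0.23, adjusted p = 0.983). The intervals of Ikzf1 and Ikzf2 are narrower than those of Ikzf3 and Ikzf4, whose mean summed counts were 162 and 238 per library against 818 and 1005. The sign of the log2 fold change of Ikzf1, Ikzf2, Ikzf3 and Ikzf4 turned under other settings, none of them with a call.

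Pegasus had the tightest WT libraries of the family relative to their mean. Its single peak had 58.7, 58.4, 59.5 and 56.3 CPM in WT and 54.5, 50.6 and 51.9 in KO. Every KO library lies below every WT library, which held for 1 of the 5 members, beside 4.66% of all gene sums (KO above WT at 5.08%, either at 9.74%). The means were 58.0 ± 1.48 and 52.3 ± 2.0 CPM (SD, n = 3), a log2 fold change of -0.15 (SE 0.15, interval -0.45 to 0.15). The exact two-sided permutation test over 35 arrangements of the labels gave p = 0.0286, the smallest it can give. It counts WT replicates 2 and 3 separately. Adjusted over the 5 such tests on the members, this permutation p was 0.143. The edgeR test, whose spread at this count is shared among genes, gave an adjusted p of 0.786. The same peak touches Acadsb, an enzyme of branched-chain amino acid breakdown, whose gene end lies at 131410601 on chromosome 7, so it cannot be given to either gene alone.

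**Figure D1:**
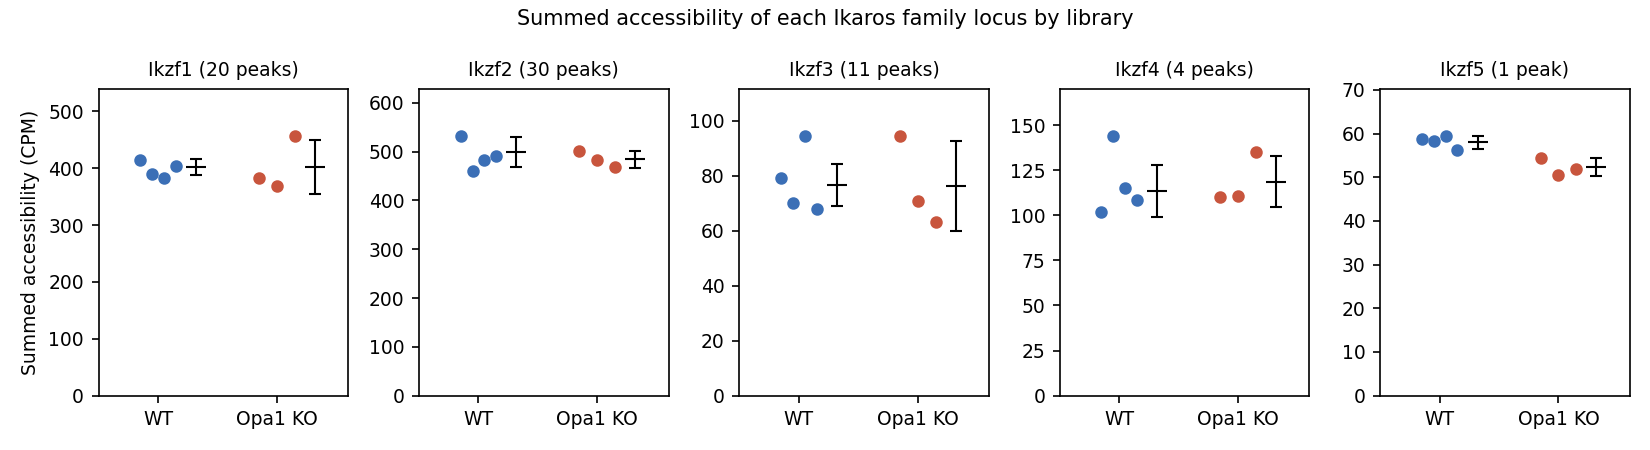
Summed accessibility of the peaks of each Ikaros family gene in CPM (y axis, from 0), with 1 point per library (4 WT, blue; 3 Opa1 KO, red) and the mean ± SD beside them (n = 3, WT replicates 2 and 3 averaged). The groups overlap for Ikzf1 to Ikzf4, and for Ikzf5 the KO libraries at 50.6 to 54.5 CPM lie below the WT libraries at 56.3 to 59.5.

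Levels can be compared between the genes per length of peak. In WT, Ikzf5 had 103 ± 2.63 CPM per kb of peak, Ikzf4 62.1 ± 7.85, Ikzf1 59.6 ± 2.14, Ikzf2 49.3 ± 3.07 and Ikzf3 24.1 ± 2.38. Ikzf4 and Ikzf1 did not differ beyond their spread, with WT libraries at 55.9 to 78.9 and 56.7 to 61.6 CPM per kb, while the other neighbours in that order did not overlap. The KO libraries gave the same order, with means of 92.9, 64.9, 59.7, 47.8 and 23.98 CPM per kb, and again Ikzf4 and Ikzf1 overlapped. The Ikzf5 value comes from 1 peak at a gene end, whereas the peaks of Ikzf4 all lay inside the gene.

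Over the single peaks, 52 of the 66 passed the count filter and 0 were called, where 33 of the 38041 tested peaks were called (0.0867%). These were 18 higher (0.0473%) and 15 lower (0.0394%) in KO, or 16 and 23 with total counts as the only scaling. An unadjusted p under 0.05 was reached by 5 of the 52, beside 9.46% of all tested peaks. Of these 5, 2 were higher and 3 lower in KO, beside 4.7% and 4.76%. Among the 3 lower, the Ikzf1 peak from 11734075 passed the count filter through WT libraries alone. The log2 fold change was above 0 at 27 and below 0 at 25, beside 49.7% above 0 among all tested peaks, with a median of 0.04 beside -0.00 over all tested peaks. It ran from -1.10 to 0.70, with SE from 0.11 at the strongest peaks to 0.62 at the weakest. The lowest value is at the Ikzf2 peak from 69662834, which passed the count filter through WT libraries alone. The highest is at 69653547, where every KO library but not every WT library reached the filter's level. The range therefore depends in part on that filter. At 7 of the 52 peaks WT and KO libraries were fully apart, 2 with KO above and 5 with KO below, which is 13.5% beside 9.32% of all tested peaks (4.84% above and 4.47% below). Of the 5 with KO below, 3 lay at Ikzf2, 1 at Ikzf3 and 1 at Ikzf5. The Ikzf3 peak, from 98487604, passed the count filter through WT libraries alone. The same filter was applied to all tested peaks. The 14 peaks that did not pass had a mean of 0.571 to 9.71 counts per library. With no count filter all 66 were tested, 0 were called and 7 had an unadjusted p under 0.05, beside 4545 of all 50206 peaks tested that way.

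**Figure D2:**
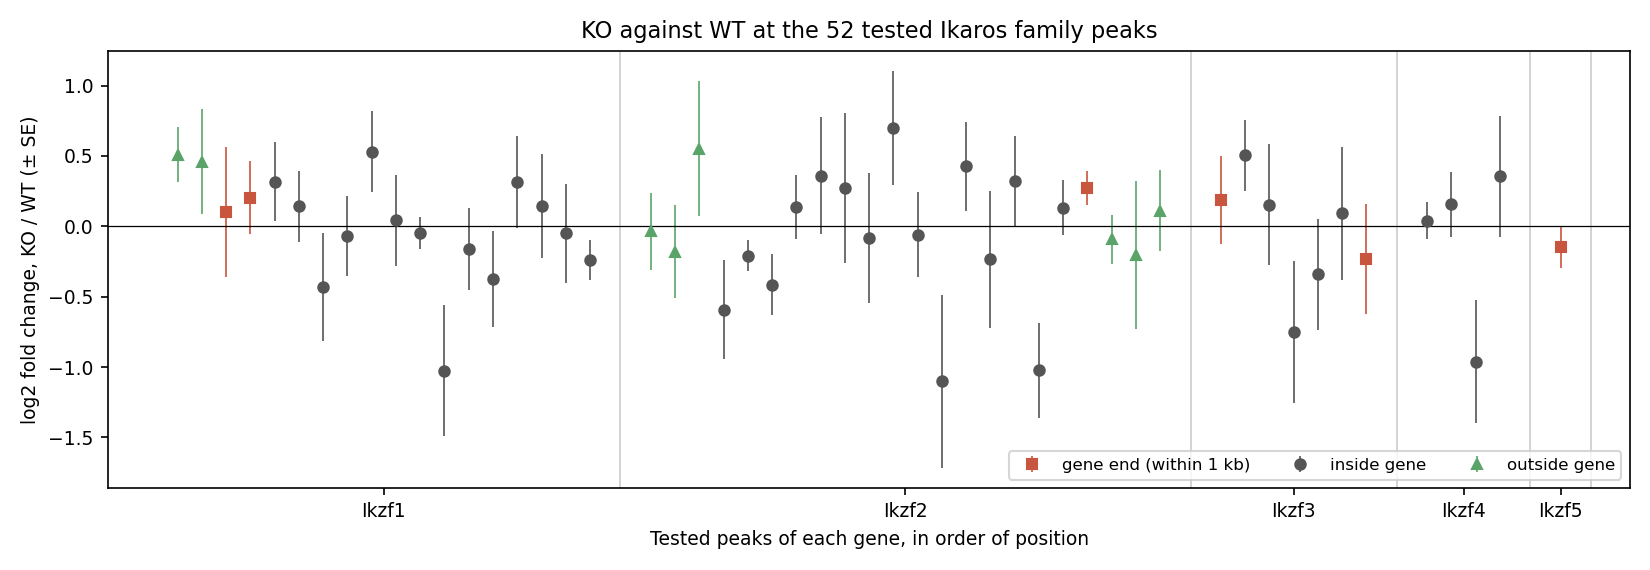
Log2 fold change of KO against WT with its standard error (y axis) for the 52 tested peaks, in order of position within each gene (x axis). Red squares are peaks within 1 kb of a gene end, grey circles peaks inside the gene and green triangles peaks outside it. Values run from -1.10 to 0.70 and none passed an adjusted p of 0.05. The lowest is at a peak that passed the count filter through WT libraries alone.

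The Ikzf2 locus (gene at chromosome 1, 69531207 to 69687351) held 1 peak at a gene end, 19 inside the gene and 10 outside it. The table of genes gives no exons, so exons and introns were not told apart. As background, mouse Ikzf2 is read toward lower coordinates, so its start is the end at the higher coordinate. The WT signal was uneven along the locus. The peak with most counts lay inside the gene, 12976 bp from its end at the lower coordinate, with 106 ± 7.62 CPM in WT. The gene-end peak had 75.8 ± 2.94 CPM, and a peak 4638 bp beyond it (69691989 to 69692765) 47.4 ± 8.61. Inside the gene, peaks from 69554053 and 69683100 had 34.5 ± 5.09 and 31.4 ± 3.89 CPM, and every other Ikzf2 peak had at most 24.7 CPM in WT.

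**Figure D3:**
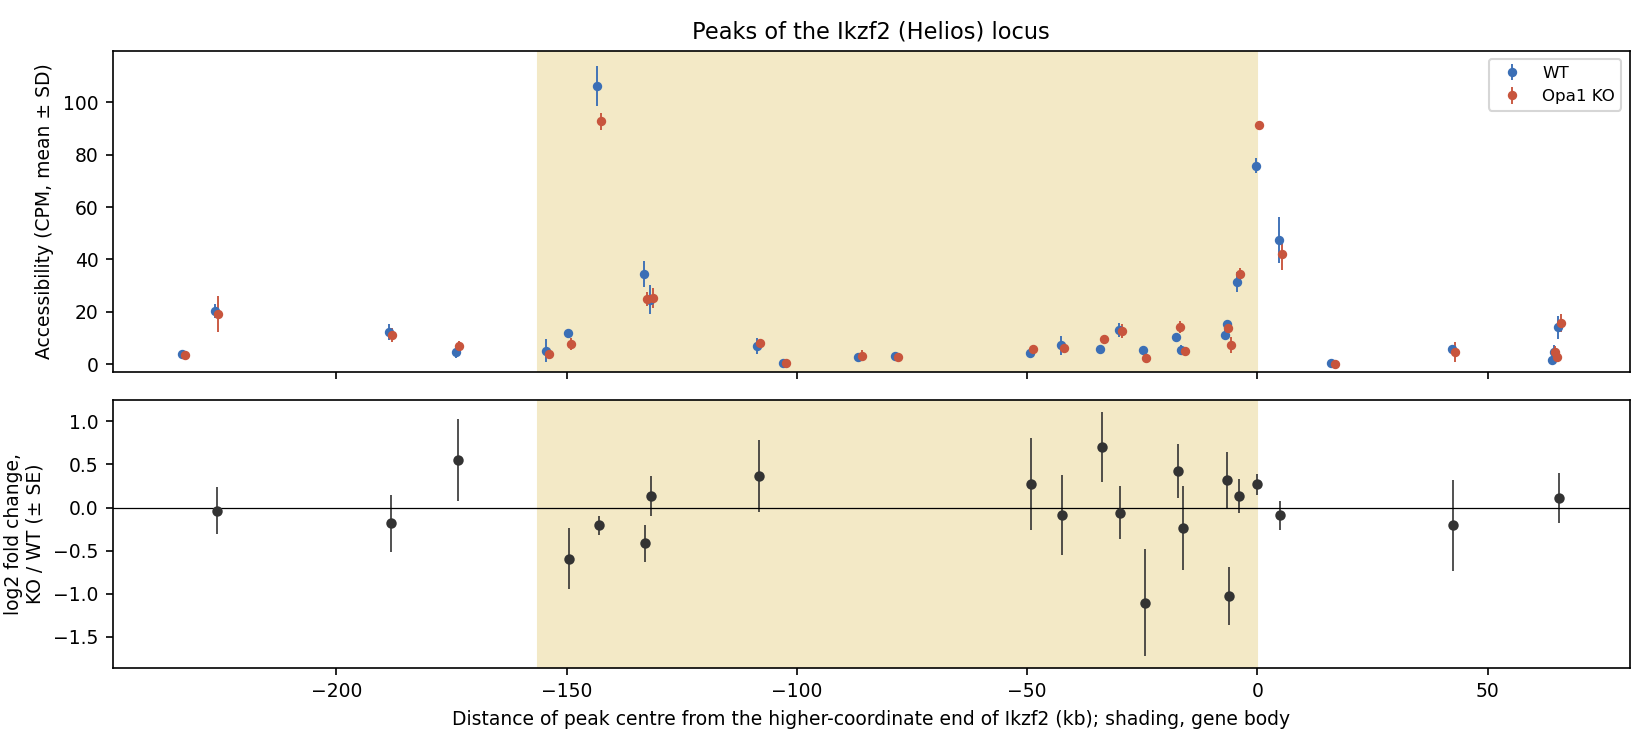
Ikzf2 locus, with the distance of each peak's centre from the higher-coordinate end of the gene in kb (x axis) and the gene body shaded. The upper panel gives accessibility (CPM, mean ± SD, n = 3) of all 30 peaks in WT (blue) and Opa1 KO (red), and the lower panel the log2 fold change with its SE for the 22 tested peaks; signal is highest at the gene end, at 75.8 CPM in WT and 91.2 in KO, and near the far end of the gene, at 106 and 92.6.

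The gene-end peak of Ikzf2 (69687071 to 69687691) had 73.7, 66.2, 82.8 and 79.1 CPM in WT and 92.1, 90.1 and 91.3 in KO. All KO libraries lie above all WT libraries and close together. The means were 75.8 ± 2.94 and 91.2 ± 0.99 CPM (SD, n = 3), a log2 fold change of 0.27 (SE 0.12, unadjusted p = 0.0285, adjusted p = 0.464), so the peak was not called. WT replicates 2 and 3, averaged in that SD, are the lowest and highest WT libraries here, so the SD is narrower than the spread of the 4.

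The peak with most counts in Ikzf2 (69544183 to 69544626) had 113, 105, 111 and 97.9 CPM in WT and 90.3, 96.2 and 91.3 in KO. Here all KO libraries lie below all WT libraries, the opposite order to the gene-end peak. The means were 106 ± 7.62 and 92.6 ± 3.16 CPM (SD, n = 3), which is -0.21 on the log2 scale (SE 0.11, adjusted p = 0.568).

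The Ikzf2 peak with the smallest p (69681078 to 69681335) lies inside the gene, 6016 bp from the end at the higher coordinate. It had 16.8, 13.6, 15.2 and 15.2 CPM in WT and 8.0, 10.4 and 4.15 in KO, with every KO library below every WT library. The WT libraries are tight and the KO libraries spread wider, with a count as low as 8. The means were 15.5 ± 1.21 and 7.50 ± 3.13 CPM (SD, n = 3), a log2 fold change of -1.02 (SE 0.34, interval -1.69 to -0.36). It was not called (edgeR, unadjusted p = 0.00346, adjusted p = 0.277). Its neighbours within the gene did not share the direction, with log2 fold changes of 0.32 (SE 0.32) at 69680573 and 0.13 (SE 0.19) at 69683100.

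Other Ikzf2 peaks without overlap of the groups were chosen after their values were seen. They lay at 69537714 (12.0 ± 0.895 CPM in WT, 7.73 in KO, log2 fold change -0.59, SE 0.35) and at 69653547 (5.77 ± 1.53 and 9.52 ± 0.491, log2 fold change 0.70, SE 0.40). Together 5 of the 22 tested Ikzf2 peaks did not overlap (22.7%), 2 above and 3 below in KO. Among all tested peaks the share was 9.32%, with 4.84% above and 4.47% below. At 69653547 every KO library reached the level of the count filter, and not every WT library did. The 6 tested peaks outside the gene ran from -0.20 to 0.55 with a median log2 fold change of -0.06. Near the far end of the gene, the tested peaks at 69537714, 69544183 and 69554053 had log2 fold changes of -0.59, -0.21 and -0.42. Their SE were 0.35, 0.11 and 0.22, and none had an unadjusted p under 0.05 in the edgeR test. At 69554053 the groups overlapped. The next tested peak, at 69555525, had 0.13 (SE 0.23). This run was also chosen after its values were seen.

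The share of the Ikzf2 sum that lay in the gene-end peak was computed after the values of these peaks were seen, so it restates them in another form and is given with no test. The share of the locus sum was 13.8%, 14.4%, 17.1% and 16.1% in WT and 18.4%, 18.7% and 19.5% in KO. The groups did not overlap. The log2 ratio of the gene-end peak to the rest of the locus was 0.36 higher in KO (-2.47 in WT and -2.11 in KO). For Ikzf1 and Ikzf3 the groups overlapped (4.76% to 7.02% in WT and 4.65% to 9.09% in KO for Ikzf1, and 21.2% to 29.9% and 23.0% to 34.5% for Ikzf3). Over all genes, gene-end peaks took 46.0% to 46.9% of the counts in WT and 47.2% to 47.7% in KO, again without overlap, and the median log2 fold change of all 10642 tested gene-end peaks was 0.03, beside -0.01 inside genes. The part of that difference in the Ikzf2 ratio was not tested.

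**Figure D4:**
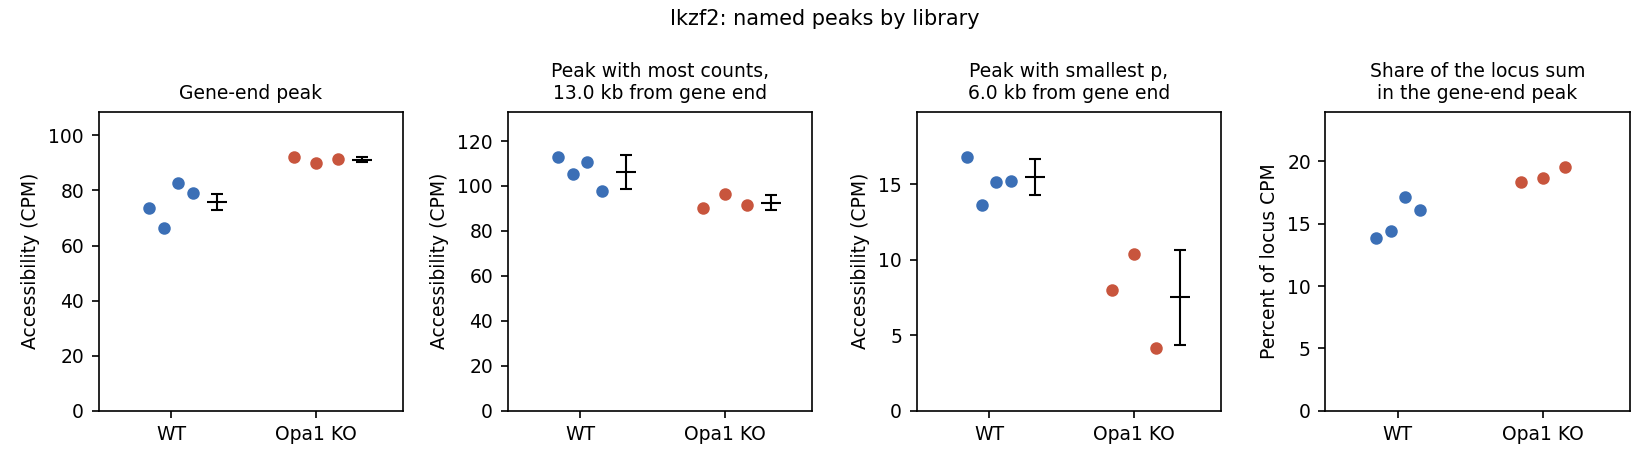
The 3 named peaks of Ikzf2 in each library (CPM, y axes from 0; WT blue, Opa1 KO red, mean ± SD beside the points, n = 3) and, at the right, the percent of the locus sum that lies in the gene-end peak. KO libraries lie above WT at the gene-end peak and below it at the other peaks, and the gene-end share is 13.8% to 17.1% in WT and 18.4% to 19.5% in KO.

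The Ikzf1 locus (chromosome 11, 11684962 to 11772930) had its highest peak inside the gene, 40992 bp from an end (11725954 to 11726535). It had 103, 125, 88.7 and 110 CPM in WT and 98.9, 96.2 and 113 in KO, and the KO values lie within the WT range. The log2 fold change was -0.05 (SE 0.11). The next highest, 6438 bp from the gene's higher-coordinate end (11766103 to 11766492), had 71.3 ± 7.84 CPM in WT against 58.1 ± 12.6 in KO (log2 fold change -0.24, SE 0.14). In WT 83.5% of the Ikzf1 signal lay inside the gene, 10.7% outside it and 5.83% in gene-end peaks. The gene-end peaks all lay at the lower-coordinate end.

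The peak over the first Ikzf1 promoter window (11685586 to 11686271) had 21.0, 20.1, 18.7 and 13.2 CPM in WT and 22.2, 26.8 and 14.0 in KO. Each group holds both low and high libraries (log2 fold change 0.20, SE 0.26), and the value ran from 0.04 without KO replicate 2 to 0.42 without KO replicate 3. A weaker peak at the gene's lower-coordinate end, its start on the plus strand (11684854 to 11685037), had 5.61 ± 1.69 CPM in WT against 6.43 ± 0.995 in KO (log2 fold change 0.10, SE 0.46). The peak over the second window (11689937 to 11690219) had 14.0 ± 1.53 and 16.9 ± 2.64 CPM (log2 fold change 0.32, SE 0.28). WT and KO libraries overlapped at each of these peaks.

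The smallest p at Ikzf1 was at a peak 27452 bp before the gene (11657117 to 11657510). It had 28.0, 22.7, 34.4 and 33.0 CPM in WT and 31.4, 42.0 and 55.5 in KO. KO replicates 2 and 3 lie above all WT libraries, while KO replicate 1 lies among them (log2 fold change 0.51, SE 0.20, adjusted p = 0.373). The value was 0.29 without KO replicate 3 and 0.73 without KO replicate 1. Inside the gene a weak peak (11734075 to 11734329) had 14.0, 2.60, 10.5 and 7.10 CPM in WT and 4.74, 3.65 and 4.15 in KO. WT replicate 2 is the lowest library of all (log2 fold change -1.03, SE 0.46, unadjusted p = 0.0301, adjusted p = 0.471). No KO library reached the level of the count filter. The peak passed it through WT libraries alone, so its fold change and p cannot serve as support. Of the 18 tested Ikzf1 peaks 10 had a log2 fold change above 0, the median was 0.07, and the groups overlapped at all 18.

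The Ikzf3 locus (chromosome 11, 98464610 to 98546031) was the least open, with no peak above 15.8 CPM in WT. Its highest peak, which also had its smallest p (98470201 to 98470601, inside the gene), had 17.7, 14.3, 21.0 and 12.2 CPM in WT and 26.1, 20.7 and 21.8 in KO. KO libraries are on the high side, with WT replicate 3 just above the lowest of them. The means were 15.8 ± 3.18 and 22.9 ± 2.83 CPM (SD, n = 3), or 0.50 on the log2 scale (SE 0.25, adjusted p = 0.530). The peaks at the gene's ends (98464552 to 98464877 and 98545799 to 98546090) had 11.2 ± 1.955 and 8.75 ± 1.15 CPM in WT and 13.1 ± 3.30 and 7.64 ± 2.30 in KO. At both ends the groups overlapped (log2 fold changes 0.19, SE 0.31, and -0.23, SE 0.39). With a library left out the values ran from 0.03 to 0.38 and from -0.40 to -0.03. Only 7 of its 11 peaks passed the count filter.

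Around Ikzf4 (chromosome 10, 128630839 to 128669671) genes are dense, and 19 of the 23 peaks within 100 kb lay nearer to, or in, 11 other genes. No peak lay within 1 kb of either end of Ikzf4. Its highest peak (128636679 to 128637520) had 59.2, 92.2, 79.3 and 74.1 CPM in WT and 77.3, 75.5 and 79.9 in KO. WT libraries spread on both sides of the KO libraries (log2 fold change 0.04, SE 0.13). A weak peak (128646418 to 128646686) had 12.1, 15.6, 5.83 and 9.13 CPM in WT and 2.96, 2.44 and 11.4 in KO. KO replicates 1 and 2 lie below all WT libraries and KO replicate 3 among them. The log2 fold change was -0.96 (SE 0.44, unadjusted p = 0.0306, adjusted p = 0.472). It was -0.57 without KO replicate 1 and -1.91 without KO replicate 3. The last 2 peaks, at 128645646 and 128663876, had log2 fold changes of 0.16 (SE 0.23) and 0.36 (SE 0.43).

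The genes whose sums moved most like each member over the 7 libraries were listed by Pearson r on log2 CPM among 9458 genes with a mean sum of at least 50 counts. They were Dera (0.98), Hs1bp3 (0.96) and Swap70 (0.95) for Ikzf2, and Ccdc47 (0.96), Prdx3 (0.96) and Rcbtb2 (0.95) for Ikzf1. Acp6 (0.96), Tor1aip2 (0.95) and Zdhhc12 (0.95) were nearest to Ikzf3, and Gatd1 (0.98), Dtd1 (0.97) and Ube3c (0.97) to Ikzf4. For Ikzf5 they were Acadsb (1.0), whose sum is the same peak, Etv6 (0.98) and Als2cl (0.98). These values share 7 libraries and are picked from many genes, so they are a description only.

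Partners of the family were read from a list of 23 genes, all with peaks. It holds the NuRD complex, the corepressors Ctbp1, Ctbp2, Sin3a and Sin3b, the SWI/SNF ATPase Smarca4 and the cereblon ubiquitin ligase. Summed accessibility was called higher in KO at 1 of the 23 genes and lower at 0. Beside this, 0.376% of all gene sums were called in either direction (17 higher and 33 lower of 13287). This gene was Crbn, which encodes cereblon, the substrate receptor through which thalidomide-type drugs mark Ikaros and Aiolos for degradation. No such drug is named in the labels. The Crbn sum was 215, 174, 198 and 193 CPM in WT and 259, 241 and 243 in KO. All KO libraries lie above all WT libraries, and the means were 198 ± 15.3 and 248 ± 9.62 CPM (SD, n = 3; log2 fold change 0.34, SE 0.08, adjusted p = 0.0194 in edgeR's quasi-likelihood test). The call was lost without WT replicate 2 (adjusted p = 0.0788), WT replicate 4 (0.0771), KO replicate 1 (0.202) or KO replicate 3 (0.0932), with DESeq2 (0.0702) and with loess offsets (0.0502).

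Crbn (chromosome 6, 106778244 to 106800099) had 6 peaks, each with a log2 fold change above 0 and none called alone. The largest were at peaks inside the gene. The peak at 106792898 had 36.9 ± 6.38 CPM in WT against 57.2 ± 9.71 in KO (log2 fold change 0.71, SE 0.17, adjusted p = 0.0574), and that at 106791485 had 25.6 ± 0.783 and 41.4 ± 8.91 (log2 fold change 0.71, SE 0.20, adjusted p = 0.161). The gene-end peak at 106799875 had 80.4 ± 13.5 and 84.8 ± 7.27 CPM (log2 fold change 0.11, SE 0.13). Leaving out its highest peak, the Crbn sum differed by 0.48 on the log2 scale (SE 0.10, adjusted p = 0.00928).

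The other partner genes were not called. Chd3, a NuRD helicase, had 33.7 ± 7.43 CPM in WT against 51.2 ± 0.338 in KO (log2 fold change 0.54, SE 0.18, adjusted p = 0.150), and Sin3a 221 ± 26.9 and 259 ± 21.0 (0.24, SE 0.08, adjusted p = 0.178). Chd4, the main NuRD helicase of lymphocytes, had 34.5 CPM in WT and 35.9 in KO (0.05, SE 0.19), and the deacetylase genes Hdac1 and Hdac2 had log2 fold changes of -0.14 (SE 0.16) and 0.03 (SE 0.12). An unadjusted p under 0.05 was reached by 4 of the 23, beside 11.6% of all gene sums. The log2 fold change was above 0 at 17 of the 23, with a median of 0.08, beside 51.6% of all gene sums and a median of 0.01. Of the 70 tested peaks of the list 0 were called, beside 0.0867% of all tested peaks. Of the 70, 43 had a log2 fold change above 0, beside 49.7% of all, and the median was 0.09 beside -0.00.

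**Figure D5:**
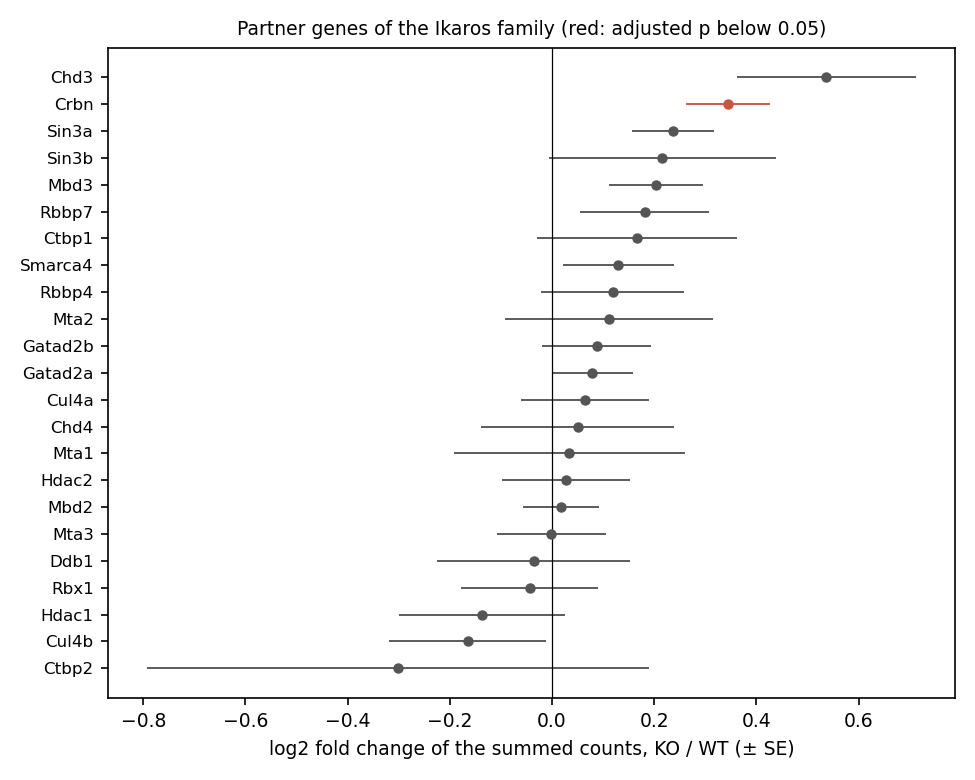
Log2 fold change of the summed counts, KO against WT, with its standard error (x axis) for the 23 partner genes (y axis, ordered by value). Red marks the gene with an adjusted p below 0.05, Crbn at 0.34; 17 of the 23 lie above 0.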

How the data were processed

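The deposited data are raw counts (whole numbers) of 7 libraries over 50213 peak intervals. Per the submitters' processing notes, the genome was mm10 and the tools were MACS2 2.1.1, BWA 0.7.16, bedtools 2.25.0, SAMtools 1.9, Trimmomatic 0.36 and Picard 2.9.4. The sources used here do not give the settings, the merging of peaks across libraries, read shifting or the base from which starts count. Positions are as deposited. A peak edge can move by a few bases with a shift. Between 78.0% and 86.3% of counts per library were even, as counting both mates of a pair would give, and counts would then overstate fragments. PCR reads are not independent molecules.

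Each peak was given to protein-coding genes (RefSeq, GRCm38.p6) by overlap (32471 peaks) or the nearest gene within 100 kb (14997 peaks). 2745 peaks had no gene. A peak touching several genes counted for each. Nearness is no evidence of a target. Tests used edgeR 4.0.16 in R 4.3.3 (quasi-likelihood, robust, genotype as the only term), filterByExpr (minimum count 10, total 15), TMM factors of the peak table, and Benjamini-Hochberg adjustment over all features at 0.05, for peaks and for sums per gene. Alternatives used DESeq2 1.42.0 and limma 3.58.1. Gene sums were also compared by exact permutation over 35 label arrangements. Summaries used Python 3.11.15, pandas 2.3.3, NumPy 2.4.6 and matplotlib 3.10.9.

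Described in full were each gene's sum, its peak with most counts, its peak with the smallest p, its peaks within 1 kb of a gene end, and peaks with an unadjusted p under 0.05. The ratio of gene-end peaks to the rest of a locus was added after the data were seen. Partner genes were named if called, and the partners not called and other Ikaros family peaks were chosen after their values were seen. The members and lists were chosen with earlier results of these data known. The result of 1 marker list is not reported here.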

Additional observations from a re-analysis of the deposited data

How the results depend on the processing

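No Ikaros family peak was called in the 19 alternatives run, and no Ikaros family gene sum in its 20 or 21. For single peaks, the alternatives with overlapping peaks only and with a limit of 20 kb took a part of the main fit. They could therefore add no peak call. At an unadjusted p under 0.05 edgeR had 5 of the 52 family peaks, DESeq2 5 and limma-voom 6. Beside these, 3599, 3091 and 3925 of all 38041 tested peaks reached it. The sign turned in 4 of 228 alternatives of the named peaks. Part of these peaks were named for a small p in the same libraries, which favours a stable sign. At the highest Ikzf4 peak the log2 fold change was -0.0198 with loess offsets and -0.0757 to 0.137 with a library left out. With a library left out it was -0.085 to 0.286 at the Ikzf1 peak from 11684854 and -0.13 to 0.027 at that from 11725954. The family median was -0.0356 with no count filter, and 0.0137 to 0.0574 with a library left out. The cause was not tested.

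The number of peaks called over all peaks, 33, became 55 with limma-voom, 60 where the mean count had to reach 20, 82 with counts halved and 15 to 43 with a library left out (17 without WT replicate 1, 15 without KO replicate 1, 16 without KO replicate 3). The number of genes called, 50, became 17 with DESeq2, 92 with counts halved and 12 to 74 with a library left out (23 and 26 without WT replicates 1 and 4, 13 and 12 without KO replicates 1 and 3). With loess offsets the calls were split 12 higher and 24 lower for peaks and 12 and 40 for genes. With a limit of 20 kb 26 genes were called, 13 in each direction, and 30 when each sum left out its highest peak.

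The Ikzf1 sum had a log2 fold change of -0.0057 with total count scaling, -0.0265 with loess offsets, -0.0034 with limma-voom, -0.0116 at a mean count of 20 or more, -0.0167 with counts halved, -0.0422 with overlapping peaks only and -0.0359 with a limit of 20 kb. With a library left out it ran from -0.077 to 0.0747. The Ikzf2 sum had 0.0236 without its highest peak and -0.0537 to 0.0141 with a library left out. The Ikzf3 sum had 0.0236 with limma-voom, 0.014 with no count filter, 0.017 with counts halved, 0.0102 with WT replicates 2 and 3 summed, 0.076 over tested peaks only and -0.216 to 0.119 with a library left out. The Ikzf4 sum had -0.00045 with total count scaling, -0.0127 with loess offsets, -0.0065 at a mean count of 20 or more, -0.0062 with counts halved, -0.0201 without its highest peak and -0.0739 to 0.124 with a library left out. The Ikzf5 sum stayed between -0.178 and -0.118 in its 20 alternatives and gave no value without its highest peak, which is its only one.

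The log2 ratio of the Ikzf2 gene-end peak to its locus was 0.303 to 0.424 with a library left out. For Ikzf1 it was -0.062 to 0.455. For Ikzf3 it was -0.209 to 0.202, and -0.0796 over tested peaks only. Same-numbered libraries of the genotypes did not deviate together (r = 0.0106, -0.0119 and 0.00373), so the numbers were not taken as pairs. With the replicate number as a block, 13 peaks and 24 genes were called, the Ikzf4 sum was -0.0047, and Crbn had an adjusted p of 0.0748. Depth limits the weak peaks, whose SE reached 0.62.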
